A study of Mus musculus with 9 samples.

Results

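Purine nucleotides are built in 2 ways, and the genes described here cover both of them together with the breakdown, uptake and interconversion of purines. They are 39 named genes of purine synthesis, salvage and adenylate metabolism, a list drawn up with earlier results of these data known. Of them 33 had a probe on the array that carried their symbol alone, out of 19938 genes measured that way. Impdh2, Gmpr and Gmpr2, listed with the branch that links IMP with AMP and GMP, and the adenosine receptors Adora1, Adora2a and Adora2b were not analysed here. The cells were MA-10, a mouse Leydig tumour line that makes steroid hormone when its cAMP rises, kept without serum for the 1.5 h of treatment. The 3 control arrays came from cells given DMSO, the solvent (their titles say no treatment and their treatment field says DMSO). The 3 forskolin arrays came from cells given 10 µM forskolin, which switches on adenylyl cyclase, and the 3 AICAR arrays from cells given the same forskolin with 1 mM AICAR, so that no array held cells given AICAR without forskolin.

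De novo synthesis assembles the purine ring on ribose phosphate. PRPP synthetase makes the activated ribose phosphate, Ppat commits it to purines, and a series of enzymes ends with Atic, which converts AICAR ribotide, also called ZMP, into IMP, the parent of AMP and GMP. Salvage rebuilds nucleotides from free bases and nucleosides, and adenosine kinase (Adk) does so for adenosine. AICAR given to cells is a nucleoside that enters through equilibrative nucleoside transporters and is phosphorylated by Adk to ZMP, so it joins this pathway at the substrate of Atic. ZMP also mimics AMP at the energy sensor AMPK, and AMP itself is governed by AMP deaminases, nucleotidases and adenylate kinases. The design asks, for these genes, whether their transcripts differed after forskolin and whether adding AICAR altered them.

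All values below are log2 expression values per probe as the authors deposited them, and a difference is a difference of group means on that scale, so that a difference of 1 is a doubling. A gene is said to rise or fall only where limma's moderated test gave an adjusted p under 0.05 (2-sided). That test was fitted to all 9 arrays, with Benjamini-Hochberg adjustment across the 19938 genes. The labels do not say whether replicates came from separate cultures, and the p-values therefore cover only the scatter among these arrays, which may be technical. The levels of different probes are not compared. In bulk RNA, fewer cells of a type and less RNA per cell cannot be told apart. Of 10 Leydig markers 8 were measured, with mean log2 values between 8.66 (Hsd3b1) and 11.81 (Nr5a1), while Lhcgr and Insl3 were not analysed here. Star, the cholesterol carrier that cAMP induces in Leydig cells, rose 3.70-fold with forskolin (adjusted p = 2.8e-07) and fell 4.14-fold when AICAR was added (adjusted p = 5.2e-07). Of the 8 Leydig markers, 3 rose with forskolin (Star, Fdx1 and Scarb1), and these 3 and Hsd3b1 fell when AICAR was added, which left Fdx1 higher than control (0.56, adjusted p = 0.00032). The log2 of their summed linear values was 13.83 to 13.87 in control, 14.09 in each forskolin array and 13.84 to 13.89 with AICAR. Array medians lay between 7.14 and 7.19. The main direction of scatter within groups held 46.0% of the within-group sum of squares, and AICAR replicates 1 and 3 lay at its opposite ends (scores of -0.60 and 0.56), so values that 1 array moved by over 1.5 times are also given without it.

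After 1.5 h the purine genes that passed a test were 5 in all. After forskolin 1 of 33 rose (Xdh), against 0.692% of all genes called in that comparison (0.497% higher and 0.196% lower). When AICAR was added to forskolin, Ak4 rose and Xdh and Prps1 fell, 3 of 33 against 5.1% of all genes (0.978% higher and 4.12% lower). Between forskolin with AICAR and control, Ak4 was higher and Slc29a2 and Ada were lower, 3 of 33 against 8.72% of all genes (3.04% higher and 5.68% lower). The largest of these changes was 1.35-fold (Ak4). The comparisons share arrays and are not independent of each other.

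**Figure D1:**
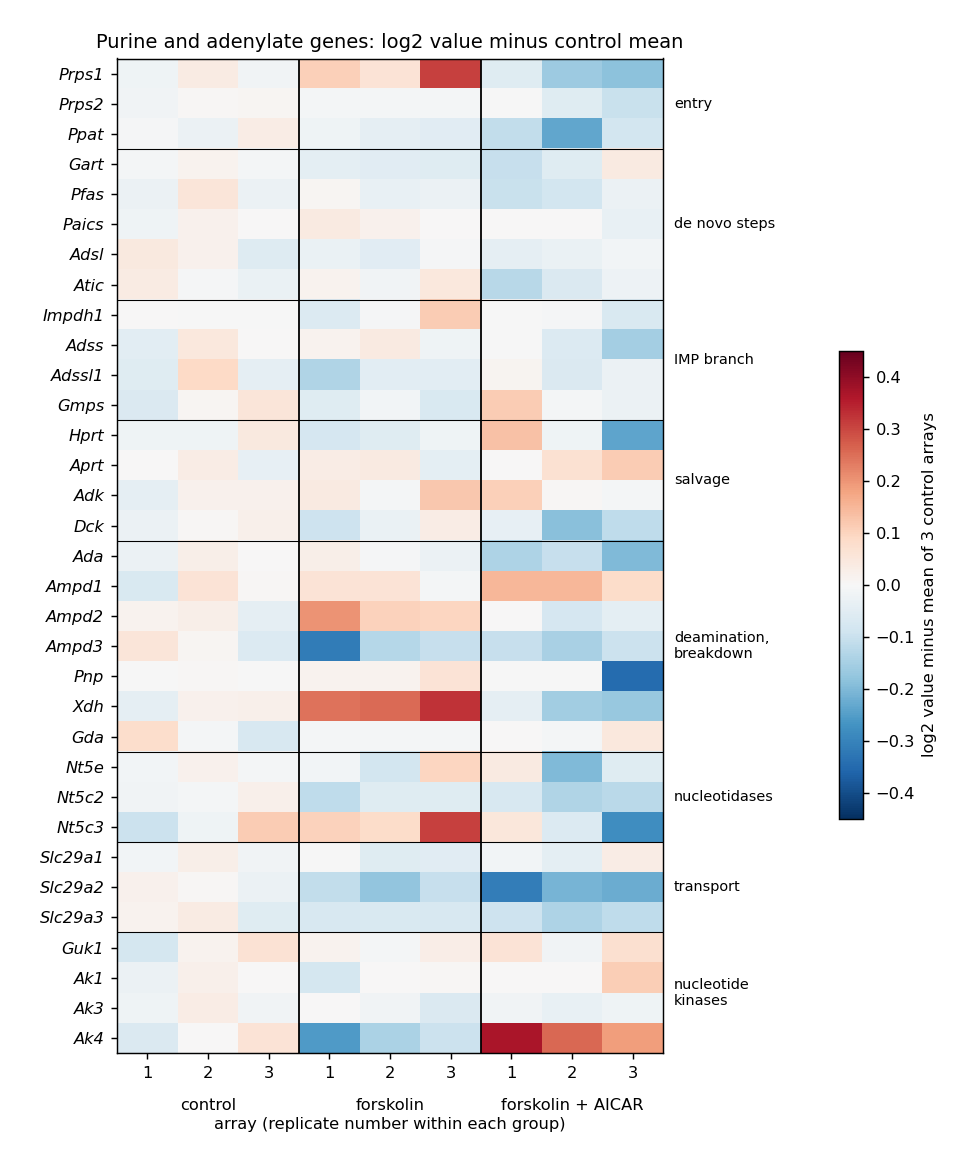
Colour gives each gene's log2 value minus its mean over the 3 control arrays, for 33 purine and adenylate genes (rows, grouped by role) and 9 arrays (columns). The Xdh row is raised in the 3 forskolin arrays only, and the Ak4 row is raised in the 3 AICAR arrays, by 0.19 to 0.37.

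Xdh encodes xanthine oxidoreductase, which oxidises hypoxanthine and xanthine to urate at the end of purine breakdown. Its log2 values were 9.15, 9.21 and 9.22 in the control arrays, 9.44, 9.45 and 9.52 with forskolin, and 9.16, 9.04 and 9.03 with forskolin and AICAR. The forskolin arrays lay above all 6 others, and the AICAR arrays overlapped the controls at the lowest control value. Xdh rose 1.21-fold with forskolin (log2 difference 0.27, SE 0.05, adjusted p = 0.032 in limma). It fell 1.31-fold when AICAR was added (-0.40, SE 0.05, adjusted p = 0.0016), which left it at -0.12 from control (SE 0.05, adjusted p = 0.12). The fall kept its call without each of the 9 arrays in turn (adjusted p up to 0.01). The rise lost its call without any 1 control array, any 1 forskolin array or AICAR replicate 2 (adjusted p of 0.059 to 0.16, log2 difference 0.25 to 0.29), and with each array centred on its median (0.25, adjusted p = 0.12). With the replicate number as a block in the fit, the rise was not called either (adjusted p = 0.15). Against control, Xdh with AICAR was called lower without AICAR replicate 1 (-0.16, adjusted p = 0.028).

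Ak4 encodes an adenylate kinase of the mitochondrial matrix, a family that moves phosphate between adenine nucleotides. Its log2 values were 11.21, 11.28 and 11.34 in control, 11.02, 11.14 and 11.18 with forskolin, and 11.64, 11.54 and 11.47 with forskolin and AICAR. The 3 groups did not overlap. Ak4 rose 1.35-fold over forskolin when AICAR was added (0.44, SE 0.06, adjusted p = 0.0031), and it was 1.21-fold higher than control (0.27, SE 0.06, adjusted p = 0.026). Forskolin alone gave -0.16 (SE 0.06, adjusted p = 0.51).

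Another probe also carried the symbol Ak4 and served as an added check. Where in the genome either probe lies is not given in the sources used here, and whether either reads a near-identical copy was not tested. The other probe read 8.93, 8.89 and 8.996 in control, 8.85, 8.91 and 8.91 with forskolin, and 9.40, 9.22 and 9.47 with AICAR. On it AICAR gave 0.47 over forskolin (SE 0.06, adjusted p = 0.0024) and 0.43 over control (SE 0.06, adjusted p = 0.0039), while forskolin against control was -0.05 (SE 0.06, adjusted p = 0.95). Both probes therefore held higher values in the 3 AICAR arrays than in any other array, and only the probe with the higher mean separated forskolin from control. On the probe with the higher mean, the call over forskolin held without each array in turn (adjusted p up to 0.017). On that probe the call over control was lost without any 1 control array or AICAR replicate 2 (adjusted p of 0.052 to 0.079), and with median centring (0.055). It was also lost with the replicate number as a block (adjusted p = 0.069) and in a fit to the 2 groups alone (adjusted p = 0.057). Ak3, a mitochondrial relative that uses GTP, had 11.12 in control, 11.09 with forskolin and 11.10 with AICAR, while cytosolic Ak1 had 9.46, 9.44 and 9.50. Neither passed a test.

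**Figure D2:**
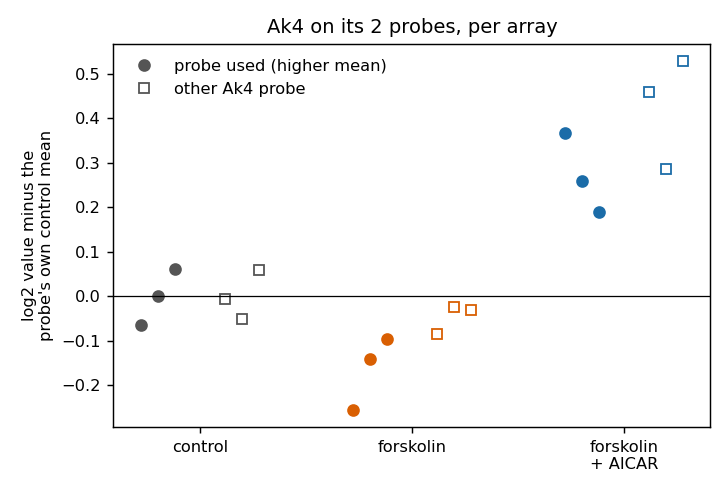
Log2 values of Ak4 in each array (points, 3 per group) minus the same probe's mean over the control arrays, for the probe used (filled circles) and the other probe of that symbol (open squares). The AICAR arrays lie at 0.19 to 0.37 on the first and 0.29 to 0.53 on the other.

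Prps1 encodes a PRPP synthetase, the enzyme that feeds de novo synthesis and base salvage with activated ribose phosphate. Its log2 values were 8.78, 8.84 and 8.78 in control, 8.91, 8.86 and 9.11 with forskolin, and 8.75, 8.64 and 8.62 with AICAR. The 3 groups did not overlap, and forskolin replicate 3 was the highest array. Prps1 fell 1.22-fold when AICAR was added to forskolin (-0.29, SE 0.07, adjusted p = 0.034). The differences from control were 0.16 with forskolin (SE 0.07, adjusted p = 0.62, and 0.09 without forskolin replicate 3) and -0.13 with AICAR (SE 0.07, adjusted p = 0.19). The call was lost without any 1 control array, forskolin replicate 1 or 3, or AICAR replicate 2 or 3 (adjusted p of 0.055 to 0.12). It was also lost with the replicate number as a block (adjusted p = 0.086) and in a fit to the 2 groups alone (adjusted p = 0.11). Without forskolin replicate 3 the difference was -0.22 (adjusted p = 0.07).

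The other enzymes at the entry did not pass. Prps2, the second PRPP synthetase, read 10.80, 10.82 and 10.82 in control, 10.80 in each forskolin array, and 10.81, 10.76 and 10.71 with AICAR (-0.04 over forskolin, 95% interval -0.12 to 0.04). Ppat, the amidotransferase that commits PRPP to purines, read 10.33, 10.31 and 10.37 in control, 10.31, 10.29 and 10.28 with forskolin, and 10.22, 10.10 and 10.25 with AICAR. The AICAR arrays for Ppat were the lowest of the 9, with differences of -0.11 from forskolin (adjusted p = 0.2, and -0.06 without AICAR replicate 2) and -0.14 from control (SE 0.05, adjusted p = 0.08).

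**Figure D3:**
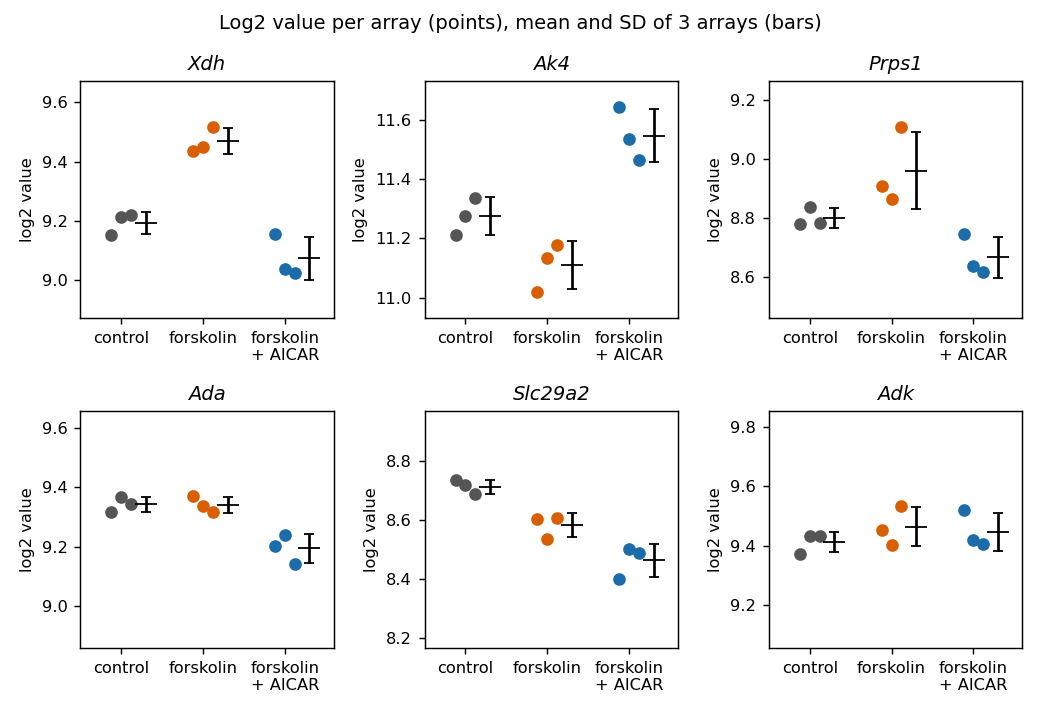
Log2 values in each array (points), with the mean and SD of 3 arrays (bars), for the 5 purine genes that passed a test in any comparison and for Adk. The Ada arrays with AICAR lie below all others, while the Adk groups overlap.

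Of the genes that carry, make or use AICAR or its ribotide, Slc29a2 passed a test, and Slc29a1, Adk, Adsl and Atic did not. Slc29a2 encodes an equilibrative nucleoside transporter of the plasma membrane. It read 8.73, 8.72 and 8.69 in control, 8.60, 8.54 and 8.61 with forskolin, and 8.40, 8.50 and 8.49 with forskolin and AICAR. The 3 groups did not overlap, with control highest. With both agents Slc29a2 was 1.19-fold lower than control (-0.25, SE 0.04, adjusted p = 0.0078), a call kept without each array in turn (adjusted p up to 0.036) and lost after quantile normalization (-0.16, adjusted p = 0.078). The separate steps did not pass, at -0.13 for forskolin against control (SE 0.04, adjusted p = 0.38) and -0.12 for AICAR against forskolin (SE 0.04, adjusted p = 0.14).

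Slc29a1, the related transporter that carries most nucleoside uptake in many cells, read 11.37, 11.41 and 11.36 in control, 11.38, 11.32 and 11.33 with forskolin, and 11.37, 11.33 and 11.41 with AICAR. Its groups overlapped, and AICAR against forskolin was 0.03 (95% interval -0.06 to 0.11). Slc29a3, the lysosomal member, had 8.97 in control, 8.90 with forskolin and 8.86 with AICAR (AICAR against control -0.12, SE 0.04, adjusted p = 0.082).

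Adk, which phosphorylates AICAR, read 9.37, 9.43 and 9.43 in control, 9.45, 9.40 and 9.53 with forskolin, and 9.52, 9.42 and 9.40 with AICAR. The groups overlapped throughout. AICAR against forskolin was -0.02 (95% interval -0.12 to 0.09), and AICAR against control was 0.03 (95% interval -0.07 to 0.14). Adsl, which forms ZMP in the pathway, read 10.93, 10.90 and 10.82 in control, 10.85, 10.83 and 10.88 with forskolin, and 10.84, 10.85 and 10.87 with AICAR (AICAR against forskolin 0.00, 95% interval -0.09 to 0.09). Atic, which consumes ZMP, read 11.41, 11.36 and 11.34 in control, 11.39, 11.35 and 11.42 with forskolin, and 11.24, 11.30 and 11.35 with AICAR. For Atic every AICAR array lay below every forskolin array, the nearest pair rounding to the same value, with a difference of -0.09 (SE 0.04, 95% interval -0.18 to 0.00, adjusted p = 0.22). The other de novo enzymes, Gart, Pfas and Paics, differed by 0.01, -0.05 and -0.03 between AICAR and forskolin, and none of the 5 de novo enzymes passed a test in any comparison.

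**Figure D4:**
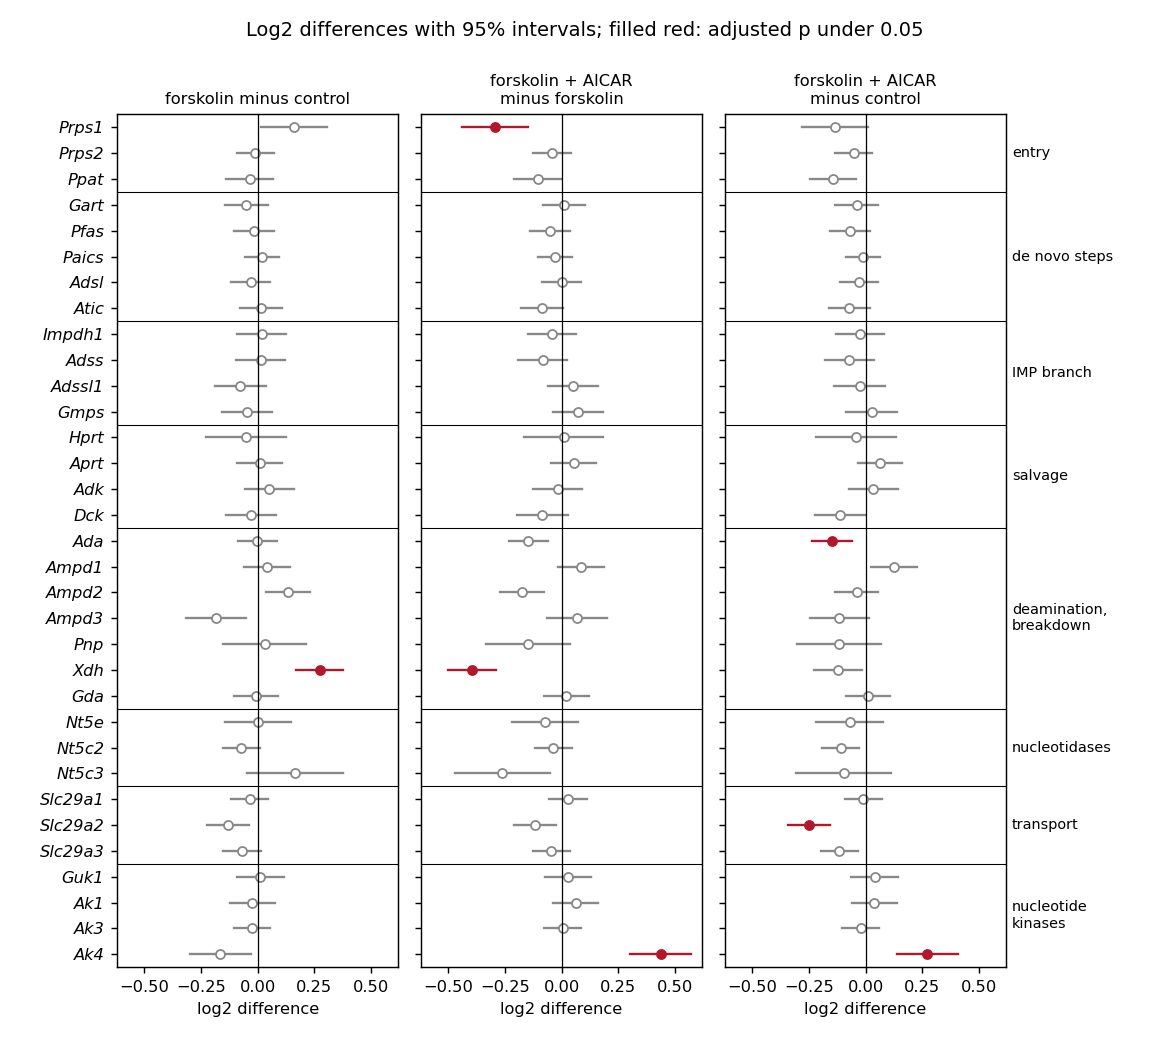
Log2 differences (points) with 95% intervals (lines) for 33 purine and adenylate genes in the 3 comparisons, each from the fit over all genes. Red filled points have an adjusted p under 0.05, and the intervals of all 5 de novo enzymes include 0 in each panel.

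Enzymes that act on AMP, IMP and adenosine gave mixed values. Ada, adenosine deaminase, read 9.32, 9.37 and 9.34 in control, 9.37, 9.34 and 9.32 with forskolin, and 9.20, 9.24 and 9.14 with AICAR. The AICAR arrays lay below all others, and control and forskolin overlapped (-0.00, 95% interval -0.09 to 0.09). Ada was 1.11-fold lower than control with AICAR (-0.15, SE 0.04, adjusted p = 0.048), and -0.15 from forskolin (SE 0.04, adjusted p = 0.065). The call against control was lost without any 1 array but AICAR replicate 1 (adjusted p of 0.057 to 0.14), and after quantile normalization the difference was -0.07 (adjusted p = 0.35). That call was also lost with the replicate number as a block (adjusted p = 0.095) and in a fit to the 2 groups alone (adjusted p = 0.1). The difference from forskolin was called without AICAR replicate 1 (-0.15, adjusted p = 0.049).

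The AMP deaminases turn AMP into IMP. Ampd2 read 10.80, 10.81 and 10.75 in control, 10.99, 10.89 and 10.89 with forskolin, and 10.79, 10.71 and 10.74 with AICAR. The forskolin arrays were the highest 3. Forskolin against control gave 0.13 (SE 0.04, adjusted p = 0.38) and AICAR against forskolin -0.17 (SE 0.04), whose adjusted p rounds to 0.05 and did not pass. Without AICAR replicate 1 it passed (-0.19, adjusted p = 0.028), as it did with probes below a mean log2 value of 5 removed (adjusted p = 0.045). Ampd3 read 10.09, 10.04 and 9.97 in control, 9.72, 9.90 and 9.93 with forskolin, and 9.93, 9.89 and 9.94 with AICAR, with forskolin replicate 1 lowest (forskolin against control -0.18, SE 0.06, adjusted p = 0.38, and -0.12 without that array, adjusted p = 0.8). Ampd1, the muscle form, had means of 5.66, 5.70 and 5.79 (AICAR against control 0.13, SE 0.05, adjusted p = 0.1).

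Of the remaining breakdown genes, Pnp, the purine nucleoside phosphorylase, read 8.36 or 8.37 in control, 8.38 to 8.42 with forskolin, and 8.36, 8.36 and 8.02 with AICAR, so that its AICAR mean rested on replicate 3 (AICAR against forskolin -0.15, SE 0.08, adjusted p = 0.29). Without that array the difference was -0.03 (adjusted p = 0.64). Gda, guanine deaminase, had group means of 5.41, 5.40 and 5.43. Among the nucleotidases, which strip the phosphate from nucleoside monophosphates, Nt5c3 read 8.45, 8.53 and 8.66 in control, 8.65, 8.63 and 8.86 with forskolin, and 8.60, 8.49 and 8.27 with AICAR. The AICAR arrays for Nt5c3 were below the forskolin arrays but scattered (-0.26, SE 0.09, adjusted p = 0.14), and the difference passed without AICAR replicate 1 (-0.34, adjusted p = 0.044). It was -0.17 without AICAR replicate 3 (adjusted p = 0.35) and -0.19 without forskolin replicate 3 (adjusted p = 0.39). Nt5c2, the cytosolic IMP- and GMP-preferring enzyme, had means of 10.27, 10.19 and 10.16 (AICAR against control -0.11, SE 0.04, adjusted p = 0.087, and -0.13 with adjusted p = 0.043 without AICAR replicate 1). Nt5e, the cell-surface enzyme that makes adenosine from AMP, had 9.23, 9.23 and 9.16.

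No gene of the branch from IMP to AMP and GMP, of salvage or for guanylate kinase passed in any of the 3 comparisons. Impdh1, which commits IMP to guanine nucleotides, had means of 9.68 in control, 9.69 with forskolin and 9.65 with AICAR. Adss and Adssl1, which commit it to adenine nucleotides, differed by -0.08 and 0.05 between AICAR and forskolin, and Gmps, GMP synthetase, by 0.07. The base salvage enzymes Hprt and Aprt differed by 0.01 and 0.05 in the same comparison, Hprt with a wide spread in the AICAR arrays (10.08, 9.93 and 9.71). Dck, deoxycytidine kinase, gave -0.09 against forskolin (SE 0.05, adjusted p = 0.3) and -0.11 against control (SE 0.05, adjusted p = 0.15). Guk1, guanylate kinase, gave 0.03 and 0.04.

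Across the 33 genes the median log2 difference was -0.01 for forskolin against control (all genes 0.00), -0.04 for AICAR against forskolin (all genes 0.02) and -0.04 for AICAR against control (all genes 0.03). Differences were below 0 for 19, 19 and 25 of the 33, against 47.6%, 40.8% and 41.5% of all genes. Every forskolin array lay above every control array for 4 of the 33 and below for 6, against 6.85% and 7.13% of all genes. Between AICAR and forskolin the counts were 2 above and 10 below (11.5% and 12.2% of all genes), and between AICAR and control 2 above and 8 below (15.2% and 14.3%). Most of these genes read above the array medians, and the shares of all genes were not matched for level. The interquartile range was 3.35 and 3.34 in AICAR replicates 2 and 3, and 3.42 to 3.48 in the other arrays. After quantile normalization the purine medians with AICAR were -0.002 against forskolin and -0.013 against control. Whether signal level bears on these counts was not tested. The number of purine genes called depended on single arrays. For AICAR against forskolin it was 6 without AICAR replicate 1 and 2 or 3 without any other 1 array, and for AICAR against control it was 5 without AICAR replicate 1, 1 without any 1 control array or AICAR replicate 2, and 2 without any other. For forskolin against control it was 0 without any 1 control array, any 1 forskolin array or AICAR replicate 2, and 1 without AICAR replicate 1 or 3.

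**Figure D5:**
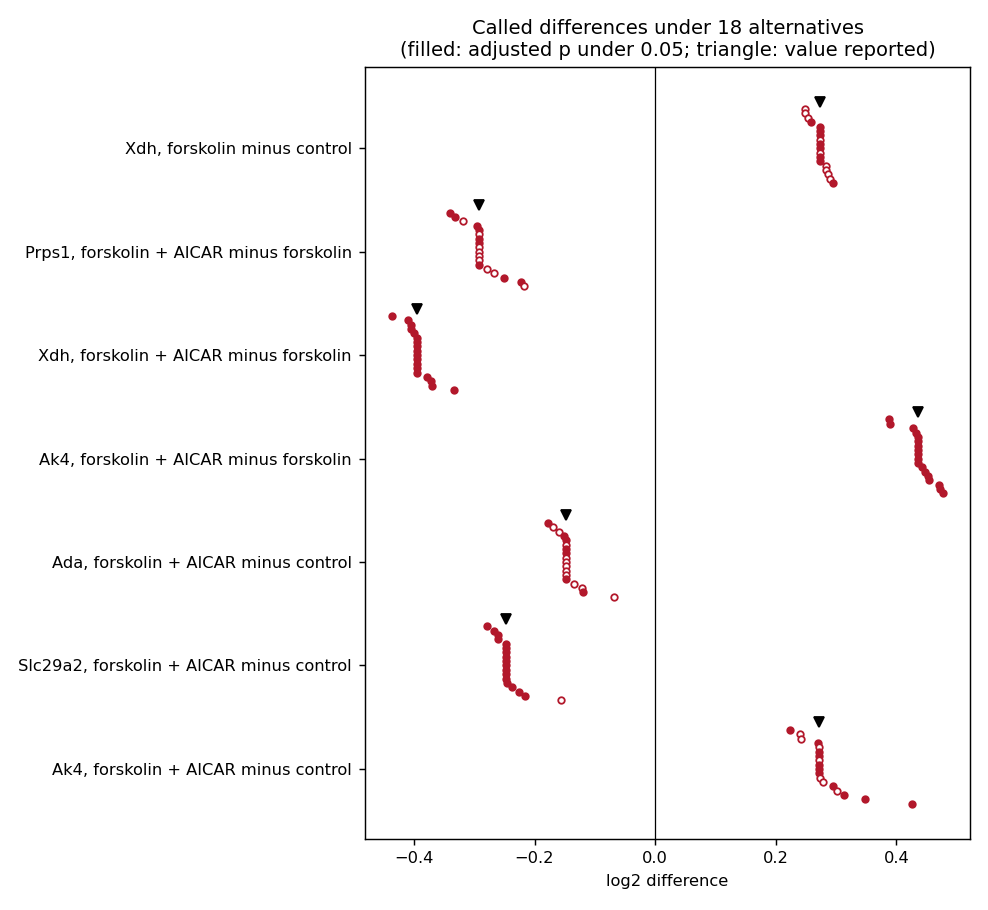
Log2 difference of each called purine gene in its comparison under 18 alternative settings (circles, filled where the adjusted p stayed under 0.05) and as reported (triangles). All circles lie on the same side of 0 as their triangle, and those of Xdh and Ak4 between AICAR and forskolin are all filled. Several settings cannot move the difference itself, so those circles show only whether the call was kept.

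The sequences just before the transcription start are shown for Prps1, Ak4 and Ada, which changed and had an entry in the promoter table, and for Adk, the kinase that acts on AICAR. Each is the 250 bases before a RefSeq start on assembly GRCm38.p6, 5′ to 3′ on the gene's strand, with capitals marking matches on either strand to CCAAT (or ATTGG, a common promoter element) and to TGACG (or CGTCA, the core letters of the element that CREB, the cAMP response factor, binds). For Prps1 the window is chrX:140456353-140456602 on the plus strand, for Ak4 the first of 4 listed starts at chr4:101419039-101419288 on the plus strand, for Ada chr2:163750240-163750489 on the minus strand, and for Adk the first of 2 listed starts at chr14:21052324-21052573 on the plus strand.
Prps1: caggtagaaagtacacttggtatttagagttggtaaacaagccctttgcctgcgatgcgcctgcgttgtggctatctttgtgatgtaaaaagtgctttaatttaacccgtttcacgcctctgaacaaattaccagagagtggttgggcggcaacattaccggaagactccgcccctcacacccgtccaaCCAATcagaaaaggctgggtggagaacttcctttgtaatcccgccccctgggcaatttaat
Ak4: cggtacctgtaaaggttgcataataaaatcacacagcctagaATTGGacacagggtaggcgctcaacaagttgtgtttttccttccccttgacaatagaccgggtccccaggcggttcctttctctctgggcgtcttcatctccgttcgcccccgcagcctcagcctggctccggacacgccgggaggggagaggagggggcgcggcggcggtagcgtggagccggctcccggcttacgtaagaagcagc
Ada: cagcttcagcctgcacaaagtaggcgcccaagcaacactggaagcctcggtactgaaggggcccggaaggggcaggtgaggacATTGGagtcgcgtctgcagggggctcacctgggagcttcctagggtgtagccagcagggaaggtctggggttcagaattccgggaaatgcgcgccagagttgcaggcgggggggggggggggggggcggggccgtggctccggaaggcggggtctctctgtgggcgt
Adk: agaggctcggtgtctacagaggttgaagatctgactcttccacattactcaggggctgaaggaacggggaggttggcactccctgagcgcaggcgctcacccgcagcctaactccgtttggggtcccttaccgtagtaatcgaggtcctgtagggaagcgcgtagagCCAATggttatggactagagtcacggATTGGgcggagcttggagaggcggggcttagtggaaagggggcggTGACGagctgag
The CCAAT match began 61 bases before the start in Prps1, 208 in Ak4 and 167 in Ada, and Adk had 2, beginning at 83 and 57, with the TGACG match beginning at 12. Of the 33 genes, 30 had entries, with 55 such windows in all. CCAAT was in 18 of the 55 (32.7%, against 33.8% of all 32851 windows) and TGACG in 8 (14.5%, against 17.8%). The full cAMP response element TGACGTCA was in 0 of 55 (1.55% of all windows), and the E-box CACGTG, to which MYC can bind, was in 6 (10.9%, against 6.02%), in windows of Atic, Ak4, Paics, Ampd3, Slc29a1 and Nt5c2. The Ak4 window shown above held no CACGTG, so that match was in the window of another listed start. Windows of the same gene are not independent of each other. These are matches of letters, not sites shown to be bound, and TGACGTCA also contains TGACG. The starts of Ppat (minus strand) and Paics (plus strand) on chromosome 5 were 276 bases apart. Each start lay on the transcribed side of the other, so that the listed beginnings of the 2 genes overlap. Between AICAR and forskolin these neighbours differed by -0.11 and -0.03.

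Beyond these genes, 108 further genes of purine and pyrimidine metabolism were listed in 9 groups by role, and 95 were measured. Uck1, which phosphorylates uridine and cytidine, fell after forskolin (-0.20, SE 0.04, adjusted p = 0.041), the 1 call among 95 (1.05%, against 0.692% of all genes). It read 10.54, 10.53 and 10.51 in control and 10.32, 10.32 and 10.35 with forskolin. Between AICAR and forskolin 1 of 95 rose and 4 fell (5.26%, near the 5.1% of all genes). Between AICAR and control 2 were higher and 8 lower (10.5%, against 8.72% of all genes, 3.04% higher and 5.68% lower).

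The largest of these groups was pyrimidine synthesis, with 18 measured genes. Of them 3 fell when AICAR was added to forskolin, where 4.12% of all genes were lower: Cmpk2, a mitochondrial pyrimidine nucleotide kinase (-0.25, SE 0.05, adjusted p = 0.022), Umps, which makes UMP (-0.22, SE 0.05, adjusted p = 0.047), and the thymidine kinase Tk1 (-0.17, SE 0.04, adjusted p = 0.032). Against control 5 of 18 were lower, where 5.68% of all genes were, namely Tyms, thymidylate synthase (-0.22, SE 0.04, adjusted p = 0.018), Cmpk2, Tk1, Uck1 and Dctd. Tyms read 10.37, 10.39 and 10.35 in control, 10.33, 10.32 and 10.30 with forskolin, and 10.13, 10.24 and 10.08 with AICAR. Its 3 groups did not overlap. Differences of AICAR from forskolin were below 0 for 14 of the 18 (40.8% of all genes). No test of the group was made.

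In the purine groups, Prpsap2, a regulatory partner of PRPP synthetase, was lower than control with AICAR (-0.22, SE 0.05, adjusted p = 0.031), 1 of the 2 partners measured. It read 9.02, 9.14 and 9.06 in control and 8.94, 8.77 and 8.84 with AICAR, while the forskolin arrays (9.01, 9.01 and 9.05) overlapped control. Of 16 nucleotidases and ectoenzymes, Entpd7, an intracellular nucleoside triphosphatase, fell against forskolin (-0.25, SE 0.06, adjusted p = 0.047) and was lower than control (-0.26, adjusted p = 0.031), and Entpd3, a cell-surface enzyme, was higher than control (0.26, SE 0.06, adjusted p = 0.026). Of 9 genes of breakdown and methylthioadenosine salvage, Uox, urate oxidase, rose against forskolin (0.37, SE 0.09, adjusted p = 0.046) and was higher than control (0.37, adjusted p = 0.035), on a probe with a mean of 5.17. Of 14 purine and pyrimidine nucleotide receptors, P2ry6, a receptor for UDP, was lower than control (-0.20, SE 0.04, adjusted p = 0.015). In the remaining 4 groups, of 11 one-carbon genes, 11 nucleotide kinases, 7 deoxynucleotide genes and 7 nucleoside carriers, limma called none in any comparison. Over the 3 comparisons 3, 5, 2 and 3 of their results had an unadjusted p under 0.05. Of all genes 7.27% did for forskolin against control, 24.1% for AICAR against forskolin and 31.1% for AICAR against control.

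These calls stood near the threshold. Without AICAR replicate 1 the 95 genes held 17 calls between AICAR and forskolin and 28 between AICAR and control. Without any other 1 array the first count was 0 to 2, with 0 when forskolin replicate 2 or 3 was left out. The other count was 0 to 7 without any other 1 array but forskolin replicate 3 (13), with 0 when control replicate 2 was left out. With a gene's probes averaged, Tk1 was at -0.07 from forskolin (adjusted p = 0.22). Among single arrays left out, P2ry6 lost its call only without control replicate 2 (adjusted p = 0.06), and the others lost theirs without each of 3 to 8 single arrays (adjusted p up to 0.16 for AICAR, and up to 0.21 for Uck1 after forskolin).

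Markers of other cells of the testis were also read. Of 9 Sertoli markers Sox9 fell with AICAR (-0.46 against forskolin, adjusted p = 0.0013, and -0.56 against control, adjusted p = 0.00043), and the log2 of the summed linear values of the list was 11.31 to 11.34 in control, 11.22 to 11.27 with forskolin and 11.14 to 11.17 with AICAR. Of 10 macrophage markers Cd68 fell (-0.40 against forskolin, adjusted p = 0.0068, and -0.28 against control, adjusted p = 0.026) and C1qa was higher than control (0.23, adjusted p = 0.027), with sums of 9.49 to 9.50, 9.54 to 9.59 and 9.42 to 9.55. No germ cell, peritubular or endothelial marker passed (0 of 10 each in limma, with 5, 9 and 2 results at an unadjusted p under 0.05 over the 3 comparisons). Of all genes 7.27% had such a p for forskolin against control, 24.1% for AICAR against forskolin and 31.1% for AICAR against control. The peritubular sum was 10.09 to 10.19 in control, 10.11 to 10.21 with forskolin and 10.22 to 10.39 with AICAR. The part of other cell types in the results above was not tested.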

How the data were processed

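Affymetrix whole-transcript arrays were read for 3 groups of 3 samples. The authors deposited 1 log2 value per probe (transcript cluster) and array. RMA and Partek are the tools named in the submitters' processing notes; versions, settings and genome build are not given in the sources used here. RMA in its usual form evens out the arrays' distributions, so a change shared by most genes would not be seen. Of 35557 probes 21789 carried 1 gene symbol, and for a gene with several the probe with the highest mean was used, without a filter on dim probes, which left 19938 genes. No value was missing, and the number of arrays limits the precision.

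Differences, standard errors and 95% intervals came from limma 3.58.1 (R 4.3.3), which was tested on simulated data; tables and figures were made in Python 3.11.15. The members, gene lists and tests were chosen with earlier results of these data known. Every measured purine gene is reported. Per-array values are given for those called and for the AICAR route and pathway entry, and up to 3 called genes are named per further list; Uck1 and Dctd against control were named to complete a count, and Pnp, Nt5c3 and Ampd3 values after they were seen. Promoter sequences are RefSeq's on GRCm38.p6, without the 50 bases after the start. Alternatives were a replicate block, a filter at a mean of 5, quantile normalization, median centring, a trended and robust prior, array weights, 2-group fits, the mean of a gene's probes and each array left out, and, added after seeing the data, the other Ak4 probe.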

Additional observations from a re-analysis of the deposited data

How the results depend on the processing

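No called purine gene changed sign under any of 18 alternatives, and 7 called results kept their call in 7 to 18 of them. The 92 uncalled results changed sign in 73 of 1656 refits, over 35 results. Many of these refits could not change a sign. The difference stays the same with the replicate block, the filter, the trended and robust prior or the 2-group fits. It also stays the same without an array of the group not compared. The mean of probes and the other Ak4 probe move the difference of Ak4 alone among the purine genes. Deviations of same-numbered arrays from their group means correlated between -0.41 and 0.33, over 0.1 in 2 of 9 pairs. Between control and forskolin they were 0.24, 0.01 and 0.33, and every negative value involved an AICAR array. Differently numbered arrays were not compared, so these values do not settle whether the replicate numbers pair the arrays. With the replicate block, 83, 583 and 874 of all genes, 0, 2 and 1 purine genes and 0, 1 and 1 of the further listed genes were called for forskolin against control, AICAR against forskolin and AICAR against control, the order kept below. Array weights gave 436, 5729 and 6619 genes, 2, 8 and 11 purine genes and 2, 31 and 38 listed genes; AICAR replicates 1 and 3 were weighted 0.354 and 0.318, and 212, 3075 and 3578 of the genes were higher. Fits to 2 groups gave 496 and 758 genes in the comparisons with AICAR, 1 purine gene in the last and 0, 0 and 1 listed genes. The trended and robust prior gave 5 purine genes for AICAR against forskolin. Quantile normalization gave 1 purine gene in the last comparison and 2 listed genes for AICAR against forskolin, and the purine median was -0.002 and -0.013 in the comparisons with AICAR. Median centring gave 0 purine genes after forskolin, and medians of -0.035 and -0.072 in the comparisons with control. Leaving out 1 array at a time gave 76 to 144, 487 to 3324 and 660 to 4741 genes, 0 to 1, 2 to 6 and 1 to 5 purine genes, 0 to 1, 0 to 17 and 0 to 28 listed genes, and purine medians of -0.018 to -0.006, -0.054 to -0.02 and -0.054 to -0.029. The highest gene counts came without AICAR replicate 1. The cause of these shifts was not tested.

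With 3 arrays a group, the median 95% interval of a purine gene reached 0.101 log2 units to either side, so smaller differences could not be told from 0. That interval is not adjusted for the number of genes tested, and larger differences also went uncalled. Nt5c3, for example, was at -0.26 between AICAR and forskolin (adjusted p = 0.14 in limma). An uncalled gene is not shown to be unchanged. One time point, 1.5 h, was measured, and transcript levels say nothing of enzyme activity or of nucleotide amounts. AICAR without forskolin was not analysed here.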

Other observations

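Many deposited values were exactly equal between arrays of a gene. At least 2 of the 9 arrays shared 1 value for 17 of the 33 purine genes (51.5%) and for 12114 of all 19938 genes (60.8%). At least 3 arrays did so for 7 purine genes (21.2%, against 34.6% of all genes). Gda, guanine deaminase, had the same value in 5 arrays, Paics, Hprt and Pnp in 4, and Impdh1, Ampd1 and Ak1 in 3. None of the 5 called purine genes had 2 equal values.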
